A study of Mus musculus with 1 sample.

Results

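The epithelial chemokines described here are 6 genes, Cxcl1, Cxcl2, Cxcl3, Cxcl5, Cxcl16 and Ccl20, of the 32285 genes counted in 1 single-cell library of mouse gastric organoids. They were picked by name after earlier results of this library had shown several of them among the leading genes of a cell cluster, so their levels are given as a description and no test was made on them. The count of unique molecular identifiers (UMIs, 1 per captured message molecule) was taken for each gene from the 1892 barcodes that passed a cell filter, which asked for 500 or more detected genes and no more than 20% of UMIs from mitochondrially encoded genes. Gastric organoids are gel-grown cultures of stomach epithelium. The genotype was labelled wild type, the treatment none and the cells epithelial, and the cultures were taken on day 7. Further genotypes that the series names were not analysed here. With 1 library there was no replicate, and every interval is a 95% interval that covers counting error only.

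Chemokines are small secreted or membrane-bound proteins that draw leukocytes along a gradient through receptors on the leukocyte surface. Cxcl1, Cxcl2, Cxcl3 and Cxcl5 belong to the group that acts on Cxcr2 and recruits neutrophils, Ccl20 acts on Ccr6 of lymphocytes and dendritic cells, and Cxcl16 is a transmembrane chemokine that binds Cxcr6 and is released by the proteases Adam10 and Adam17. Epithelial cells of the gut are known to transcribe the Cxcr2 ligands and Ccl20 in response to microbial products, tumour necrosis factor and interleukins, largely through the transcription factor NF-kB, which also induces its own inhibitors.

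The 4 Cxcr2 ligands lie together on chromosome 5 of GRCm38, all on the plus strand and all annotated as protein coding. Cxcl5 (ENSMUSG00000029371) is at chr5:90759360-90761624, Cxcl3 (ENSMUSG00000029379) at chr5:90786103-90789600, Cxcl1 (ENSMUSG00000029380) at chr5:90891241-90893115 and Cxcl2 (ENSMUSG00000058427) at chr5:90903871-90905938. This stretch of 146579 bases holds 7 protein-coding genes, and the other 3 are the chemokine genes Ppbp, Pf4 and Cxcl15. Ccl20 (ENSMUSG00000026166, chr1:83116766-83119167, plus strand) and Cxcl16 (ENSMUSG00000018920, chr11:70453983-70459984, minus strand) lie on other chromosomes. The counts cover whole genes and do not resolve exons or transcripts.

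The bases before the transcript start are shown for the members with a RefSeq promoter entry, 4 of 6, because several of these genes were high in the same cells. Each line gives the 150 bases before the RefSeq start on the plus strand of GRCm38.p6, 5′ to 3′, and capitals mark, in Cxcl1, Cxcl2 and Cxcl3, the longest run that these 3 windows share and, in Ccl20, matches to a form bound by NF-kB. The windows are chr5:90891095-90891244 for Cxcl1, chr5:90903749-90903898 for Cxcl2, chr5:90785951-90786100 for Cxcl3 and chr1:83116616-83116765 for Ccl20.
Cxcl1: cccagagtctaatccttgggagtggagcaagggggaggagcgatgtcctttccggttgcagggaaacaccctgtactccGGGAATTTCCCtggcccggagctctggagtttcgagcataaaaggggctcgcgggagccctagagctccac
Cxcl2: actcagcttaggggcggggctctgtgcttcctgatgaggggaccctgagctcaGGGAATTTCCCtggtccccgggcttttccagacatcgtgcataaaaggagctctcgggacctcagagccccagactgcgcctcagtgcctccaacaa
Cxcl3: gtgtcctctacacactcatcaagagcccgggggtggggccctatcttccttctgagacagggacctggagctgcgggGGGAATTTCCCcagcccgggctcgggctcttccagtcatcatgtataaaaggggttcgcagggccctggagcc
Ccl20: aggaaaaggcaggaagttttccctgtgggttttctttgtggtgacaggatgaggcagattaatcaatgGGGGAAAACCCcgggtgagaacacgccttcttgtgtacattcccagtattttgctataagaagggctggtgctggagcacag

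The longest run shared by the windows of Cxcl1, Cxcl2 and Cxcl3 was GGGAATTTCCC, of 11 bases, which begins 71, 97 and 73 bases before the start. Searched on both strands, it occurred within the 250 bases before the start in 14 of 32851 RefSeq promoters, or 0.0426%. The promoters of Cxcl1, Cxcl2 and Cxcl3, from which the run was taken, are counted among them. It holds a match to a general form bound by NF-kB, which is GGG, any 5 bases and CC. Ccl20 had no copy of the shared run. The capitals in its window mark 2 overlapping plus-strand matches to the general form. Over both strands and the full 250 bases Ccl20 had 4 matches, and at least 1 was found in 45.8% of promoters. A match describes the letters only, and no binding was measured here.

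The kept cells held 20118334 gene UMIs, at a median depth of 8512.5 per cell (lowest 890, highest 47183), and the median cell had 2220 genes with a UMI. Epcam, an adhesion molecule of epithelial cells, had a UMI in 96.6% of cells. Of 12 immune genes 4 were at 0 UMIs, and Ptprc, which marks leukocytes, had 1 UMI in all. The 3 highest on that list were Cd68 with 196 UMIs in 162 cells, Lyz2 with 80 UMIs in 9 cells and Ly6g with 46 UMIs in 29 cells. Of 9 stromal and vascular genes 5 were at 0, and with a floor of 3 counts a 0 in 1892 cells allows up to 0.159% of cells to have a UMI. The epithelial label was thus matched by Epcam, while these 3 immune-list genes were also detected in some cells.

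Cxcl5 had the highest level of the 6, with 1445 UMIs or 71.8 CPM (counts per 1000000 gene UMIs, 95% interval 68.2 to 75.6). CPM of 3′ UMI counts were not divided by gene length, since 1 UMI stands for 1 molecule. Only 15.3% of cells (13.7% to 16.98%) had a Cxcl5 UMI. Among these 289 cells, 157 had exactly 1 UMI and 30 had 10 or more, and those 30 held 64.4% of all Cxcl5 UMIs. The 5 highest cells had 88, 67, 66, 64 and 60 Cxcl5 UMIs at total gene UMIs of 4650, 12880, 6368, 14047 and 46780. The cell with the most Cxcl5 was thus below the median depth.

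Cxcl1 had 1064 UMIs, 52.9 CPM (49.8 to 56.2), in 18.5% of cells (16.8% to 20.3%). Its 5 highest cells had 34, 30, 29, 23 and 17 UMIs, and 17 cells had 10 or more. Cxcl1 was spread more evenly than Cxcl2 and Cxcl5, since 54 cells were needed to hold 50% of its UMIs, 16 for Cxcl2 and 17 for Cxcl5. Cxcl3, with 45 UMIs in 32 cells, is too low for this comparison.

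Cxcl2 had 873 UMIs, 43.4 CPM (40.6 to 46.4), in 8.46% of cells (7.24% to 9.80%). A single cell held 104 Cxcl2 UMIs, 11.9% of the gene's total, and the next 4 held 66, 58, 25 and 25. Together 16 cells held 50% of Cxcl2 UMIs. The same leading cell also had the most Cxcl1, with 34 UMIs, and it had 20 of Cxcl5, 5 of Ccl20, 1 of Cxcl3 and 1 of Cxcl16.

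Cxcl3 was the lowest member, with 45 UMIs, 2.24 CPM (1.63 to 2.99), in 1.69% of cells (1.16% to 2.38%). In cells thinned to 3000 UMIs, as described below, its level was 3.63 CPM. Its highest cells had 7 and 4 UMIs, and no cell reached 10. The top Cxcl3 cell had no UMI of Cxcl1, Cxcl2 or Ccl20 and 3 of Cxcl5, unlike the top cells of Cxcl1 and Cxcl2. Annotated transcripts of Cxcl2 and Cxcl3 share a run of 157 bases, so reads there could not be told apart. The run lies in 1 of 4 Cxcl2 transcripts and 1 of 2 Cxcl3 transcripts, 1849 and 3285 bases before their 3′ ends, while no other pair of the 6 shares more than 23 bases.

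Ccl20 had 94 UMIs, 4.67 CPM (3.78 to 5.72), in 2.17% of cells (1.56% to 2.93%). Its 5 highest cells had 12, 11, 8, 5 and 4 UMIs, and 8 cells held 50%. Each of these 5 cells also had at least 12 UMIs of Cxcl1, 10 of Cxcl2 and 14 of Cxcl5.

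Cxcl16 differed in its distribution. It had 1203 UMIs, 59.8 CPM (56.5 to 63.3), which is between Cxcl1 and Cxcl5 in level, but a UMI was found in 40.6% of cells (38.4% to 42.8%). No cell had more than 7 Cxcl16 UMIs, and 503 of its 768 cells had exactly 1. It took 216 cells to hold 50% of its UMIs.

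**Figure D1:**
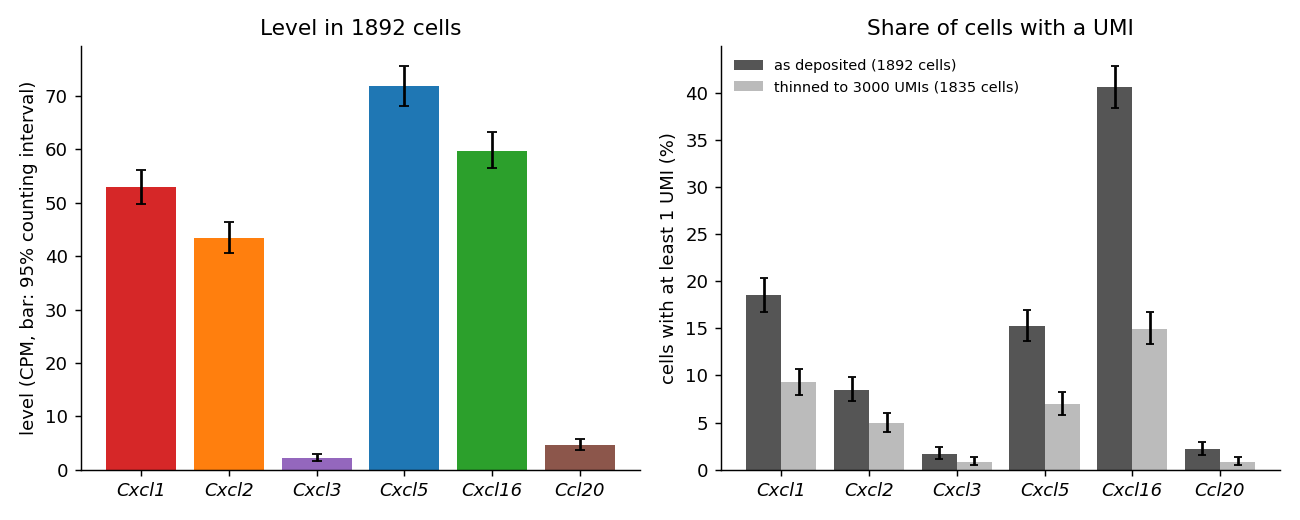
Left, level of each chemokine in CPM over 1892 cells, and right, percent of cells with at least 1 UMI as deposited (dark) and after thinning to 3000 UMIs in 1835 cells (light), with 95% counting intervals. Cxcl16 is lower than Cxcl5 in CPM, 59.8 against 71.8, but is found in 40.6% of cells against 15.3%.

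Shares of cells with a UMI depend on depth, so each cell was also thinned at random to 3000 gene UMIs, which left out 57 shallower cells. The order was kept except at its low end, with 14.99% of 1835 cells for Cxcl16, 9.26% for Cxcl1, 6.98% for Cxcl5 and 4.90% for Cxcl2. Cxcl3 and Ccl20 were both at 0.817%. No cell type that should lack these genes was in the library, so the share that free RNA alone gives was not measured. As a guide, the lowest thinned shares among clusters of at least 100 cells were 5.63% for Cxcl1 and 2.11% for Cxcl5, both in cluster 1 described below.

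Concentration was summarised by the 10% of cells with most UMIs of a gene. They held 84.9% of Cxcl1 UMIs, 93.1% of Cxcl5 UMIs and 45.6% of Cxcl16 UMIs. Cxcl2, Cxcl3 and Ccl20 had UMIs in fewer than 10% of cells, so the share is 100% by construction. For comparison the share was 26.4% for Epcam, 42.9% for the adhesion gene Cdh1 at 98.8 CPM, and 24.2% for all gene UMIs. Cxcl16 thus lay near Cdh1. The variance of thinned counts beyond counting error, relative to the squared mean, was 64.6 for Cxcl5, 60.8 for Cxcl2, 12.5 for Cxcl1 and 0.349 for Cxcl16. A value of at least 1 was reached by 9.91% of the 5017 genes with a thinned mean of at least 0.05. In that order Cxcl5 ranked 7, Cxcl2 ranked 8, Cxcl1 ranked 28 and Cxcl16 ranked 1817, and Cxcl3 and Ccl20 were below the minimum mean.

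**Figure D2:**
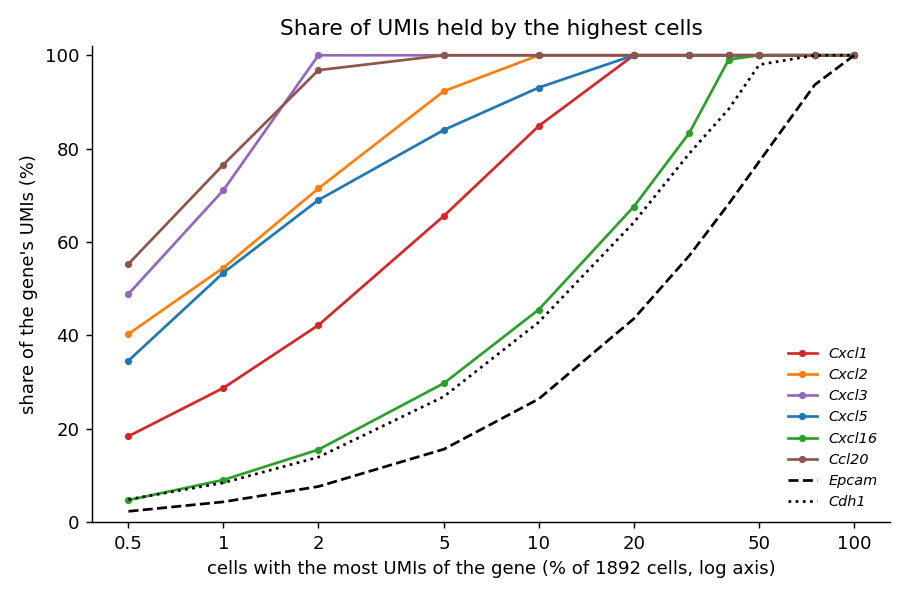
Share of each gene's UMIs (percent) held by the cells with most of them, against the percent of 1892 cells on a log axis, for the 6 chemokines (coloured) and for Epcam and Cdh1 (black). The curve of Cxcl16 runs close to that of Cdh1, with 45.6% and 42.9% at 10% of cells, and the other 5 chemokines lie above both.

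The cells that hold 50% of the UMIs of Cxcl1, Cxcl2, Cxcl3, Cxcl5 or Ccl20 came to 76 cells, or 4.02% of all. Of these, 59 belonged to the set of 1 gene, 9 to 2, 4 to 3 and 4 to 4. The Cxcl1 and Cxcl2 sets shared 10 cells, 18.5% of the Cxcl1 set and 62.5% of the Cxcl2 set. The Ccl20 set of 8 cells shared 6 with Cxcl1 and 5 each with Cxcl2 and Cxcl5, and the Cxcl3 set of 10 shared 1 cell with each of these 4. These counts depend in part on ties, since the last 4 Cxcl3 cells were taken from 26 with 1 UMI, the last 3 Ccl20 cells from 6 with 3 UMIs and the last 11 Cxcl1 cells from 17 with 5 UMIs. Without tied cells the Cxcl1 and Cxcl2 sets shared 9 cells, and the Ccl20 set of 5 shared 5 with Cxcl1, 4 with Cxcl2 and 3 with Cxcl5. The 76 cells were deeper than the other cells, with a median of 14094 against 8343.5 UMIs. Epcam had a UMI in 98.7% of them, Ptprc had 0 UMIs, the 12 immune genes summed to 19.8 CPM against 16.7 CPM in the other cells, and 2 of the 76 were called doublets.

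Co-detection was measured in thinned cells. Cxcl2 was found in 25.3% of the 170 cells with Cxcl1 (18.95% to 32.5%) and in 2.82% of cells without it (2.08% to 3.74%). Cxcl5 was found in 42.2% of the 90 cells with Cxcl2 (31.9% to 53.1%) and in 5.16% of those without (4.17% to 6.30%). These intervals do not overlap. Cxcl1 and Cxcl5 were found together in 40 cells, 3.37 times the number that the product of their shares gives (2.42 to 4.58).

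Ccl20 was found in 15 thinned cells, and 9 of them (60%, 32.3% to 83.7%) had Cxcl1. Cxcl2 and Cxcl5 were each found in 9 of the 15 as well. In cells without Ccl20 the shares were 8.85% for Cxcl1, 4.45% for Cxcl2 and 6.54% for Cxcl5. Cxcl3, also in 15 cells, had 2 with Cxcl1 and 3 with Cxcl2, and the intervals overlapped those of cells without Cxcl3. Ccl20 was in 2 of the 15, or 13.3% (1.66% to 40.5%), against 0.714% (0.381% to 1.22%), which do not overlap. At the deposited depth Cxcl5 was in 50% of the 32 cells with Cxcl3 (31.9% to 68.1%) against 14.7% of the others (13.1% to 16.4%). Cxcl1 was then in 40.6% (23.7% to 59.4%) against 18.1% (16.4% to 19.9%) and Cxcl2 in 34.4% (18.6% to 53.2%) against 8.01% (6.82% to 9.34%). None of these 3 pairs of intervals overlapped without thinning.

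Cxcl16 was found in 12.9% of cells with Cxcl1 (8.29% to 18.9%) and 15.2% of cells without (13.5% to 17.01%), and the intervals overlapped. With Cxcl5 the Cxcl16 share was 22.7% (15.7% to 30.9%) against 14.4% without (12.8% to 16.2%), which overlap narrowly. Thinned to 2000 UMIs it was 20% (12.7% to 29.2%) against 10.6% (9.16% to 12.1%), and these do not overlap. At the deposited depth, which differs from cell to cell, Cxcl16 was in 51.7% of cells with Cxcl1 (46.3% to 57.1%) against 38.1% without (35.6% to 40.5%). It was in 60% of cells with Cxcl2 (51.97% to 67.7%) against 38.8% (36.5% to 41.1%), and in 55.4% of cells with Cxcl5 (49.4% to 61.2%) against 37.9% (35.6% to 40.4%). None of these 3 pairs of intervals overlapped before thinning. Across the 1892 cells of this library, Pearson's r of ln(10000 × UMIs / gene UMIs + 1) was 0.54 for Cxcl1 with Cxcl2, 0.50 for Cxcl2 with Cxcl5, 0.50 for Cxcl2 with Ccl20 and 0.43 for Cxcl5 with Ccl20. The r of Cxcl16 with the other members was 0.02 to 0.11. These r values share 1 library and the depth of each cell and are a description.

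**Figure D3:**
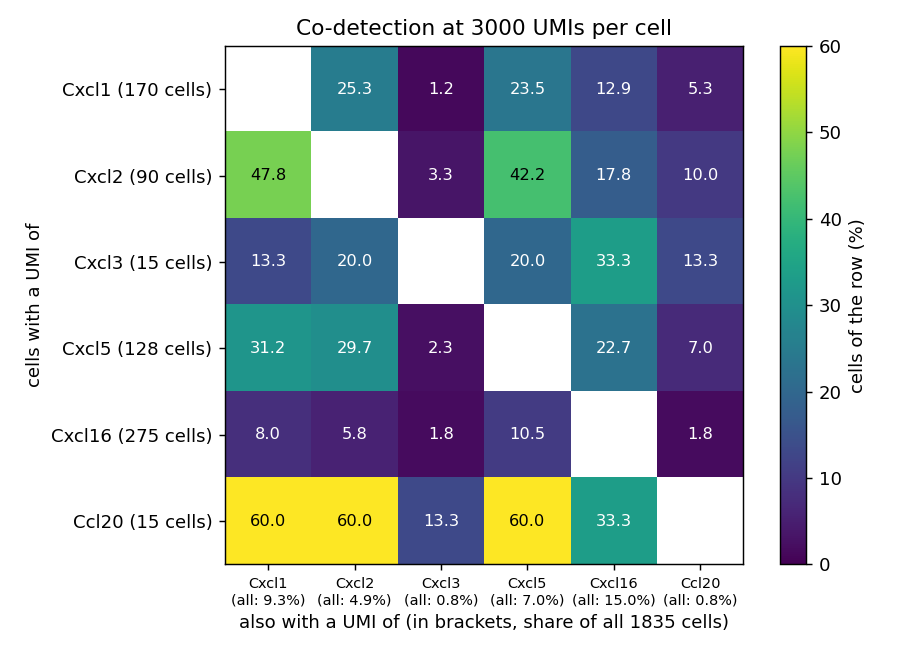
Percent of the cells with a UMI of the row's gene (number of cells in brackets) that also had a UMI of the column's gene, at 3000 UMIs per cell in 1835 cells. Cells with Ccl20 or Cxcl2 often had Cxcl1 and Cxcl5, 60% each for Ccl20 and 47.8% and 42.2% for Cxcl2, and the Cxcl16 row is low, with 8% for Cxcl1.

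Counted over the 6 genes, 71.3% of thinned cells had none, 22.5% had 1, 3.98% had 2, 1.74% had 3, 0.327% had 4 and 0.163% had 5. No thinned cell had all 6. At the deposited depth 44.3% had none and 2 cells had a UMI of every member.

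Clusters were made without any gene named Ccl, Cxcl, Cx3cl or Xcl, so that the 6 members did not define them, and were left unnamed. Ppbp and Pf4 were not covered by this rule. They held 453, 414, 376, 283, 210, 93 and 63 cells, numbered 1 to 7. The leading genes were AC168977.1, 2610528A11Rik and Ndrg1 in cluster 1, Mgat4c, Nav3 and Slit2 in cluster 2, and Aox3, Scgb3a1 and Anpep in cluster 3. Ly6m, Sprr1a and Atg9b led cluster 4, Psca, Tnfrsf4 and 2210011C24Rik cluster 5, the mitotic genes Aspm, Dlgap5 and Knl1 cluster 6, and Cyba, Reg3g and Gm3776 cluster 7. Cluster 7 stood apart, since 52.4% of its cells had a Y-linked UMI against 0% to 1.45% in the others.

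Cxcl5 was highest in cluster 7 at 162 CPM (138 to 189), followed by cluster 2 at 122 CPM (113 to 132) and cluster 3 at 121 CPM (109 to 134). The last pair did not differ beyond counting error. With the highest cell left out of each, clusters 7, 2 and 3 were at 132 CPM (110.1 to 157), 111 CPM (102.2 to 119.7) and 92.2 CPM (81.7 to 104). Cluster 2 then overlapped both of the others, so its place next to either is not set beyond counting error. Cxcl5 was lowest in cluster 1 at 6.38 CPM (3.998 to 9.66), a ratio of highest to lowest of 25.4 (16.2 to 41.6), which was 9.55 among the 3 clusters of resolution 0.3. Cluster 4 was also low, at 16.1 CPM (12.4 to 20.6).

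Cxcl1 and Cxcl2 were low in the same clusters. Clusters 1 and 4 had Cxcl1 at 18.6 CPM (14.3 to 23.7) and 26.1 CPM (21.3 to 31.7). Clusters 2, 3 and 7 had it at 71.6 CPM (64.8 to 78.9), 80.8 CPM (70.9 to 91.6) and 87.3 CPM (70.1 to 107), with overlapping intervals. Cxcl2 was likewise at 13.3 CPM (9.76 to 17.8) and 13.1 CPM (9.72 to 17.2) in clusters 1 and 4, and cluster 3 was highest at 82.4 CPM (72.5 to 93.3). That place rests on the single cell with 104 of the 248 Cxcl2 UMIs in cluster 3. Cluster 2 was at 64.1 CPM (57.7 to 71.0). With the highest cell left out of each cluster, cluster 3 was at 48.1 CPM (40.6 to 56.6) and cluster 2 at 54.2 CPM (48.3 to 60.6), with overlapping intervals, and cluster 1 at 8.72 CPM (5.89 to 12.5). The ratio of highest to lowest cluster was 4.71 (3.37 to 6.59) for Cxcl1 and 6.31 (4.65 to 8.71) for Cxcl2. It ranged from 2.96 to 8.53 for Cxcl1 and from 4.17 to 20.8 for Cxcl2 over other clustering settings and subsets of cells.

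Ccl20 was highest in cluster 3 at 10.3 CPM (7.00 to 14.6) and cluster 2 at 7.18 CPM (5.15 to 9.74), and Cxcl3 in cluster 3 at 6.65 CPM (4.06 to 10.3). The Ccl20 intervals of clusters 2 and 3 overlapped, and 12 of the 31 Ccl20 UMIs of cluster 3 lay in 1 cell, without which it was at 6.33 CPM (3.81 to 9.88). Without the cell with 7 Cxcl3 UMIs, cluster 3 was at 4.33 CPM of Cxcl3 (2.31 to 7.41). In clusters 1 and 4 the UMIs were few, 3 and 6 for Ccl20 and 2 and 6 for Cxcl3. Cxcl16 ranged only from 47.2 CPM (39.7 to 55.6) in cluster 3 to 71.6 CPM (64.8 to 78.9) in cluster 2, a ratio of 1.52 (1.25 to 1.85).

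The chemokines did not keep one ratio to each other across clusters. Clusters 1 and 4 had 2.91 (1.77 to 4.96) and 1.62 (1.17 to 2.25) Cxcl1 UMIs per Cxcl5 UMI, and clusters 2 and 7 had 0.586 (0.517 to 0.663) and 0.539 (0.412 to 0.702). The 76 cells defined above made up 14.3% (6.75% to 25.4%) of cluster 7 and 6.52% (4.34% to 9.35%) of cluster 2, against 0.442% (0.0535% to 1.59%) of cluster 1. Median depth also differed, from 6514 UMIs in cluster 1 to 14281 in cluster 7, and its part in these differences was not tested. When chemokine genes were kept in the clustering, a choice made after the first clusters were seen, Cxcl5 and Cxcl2 led a cluster of 407 cells, 355 of them from cluster 2, that held 70.4% of Cxcl5 and 68.4% of Cxcl2 UMIs.

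**Figure D4:**
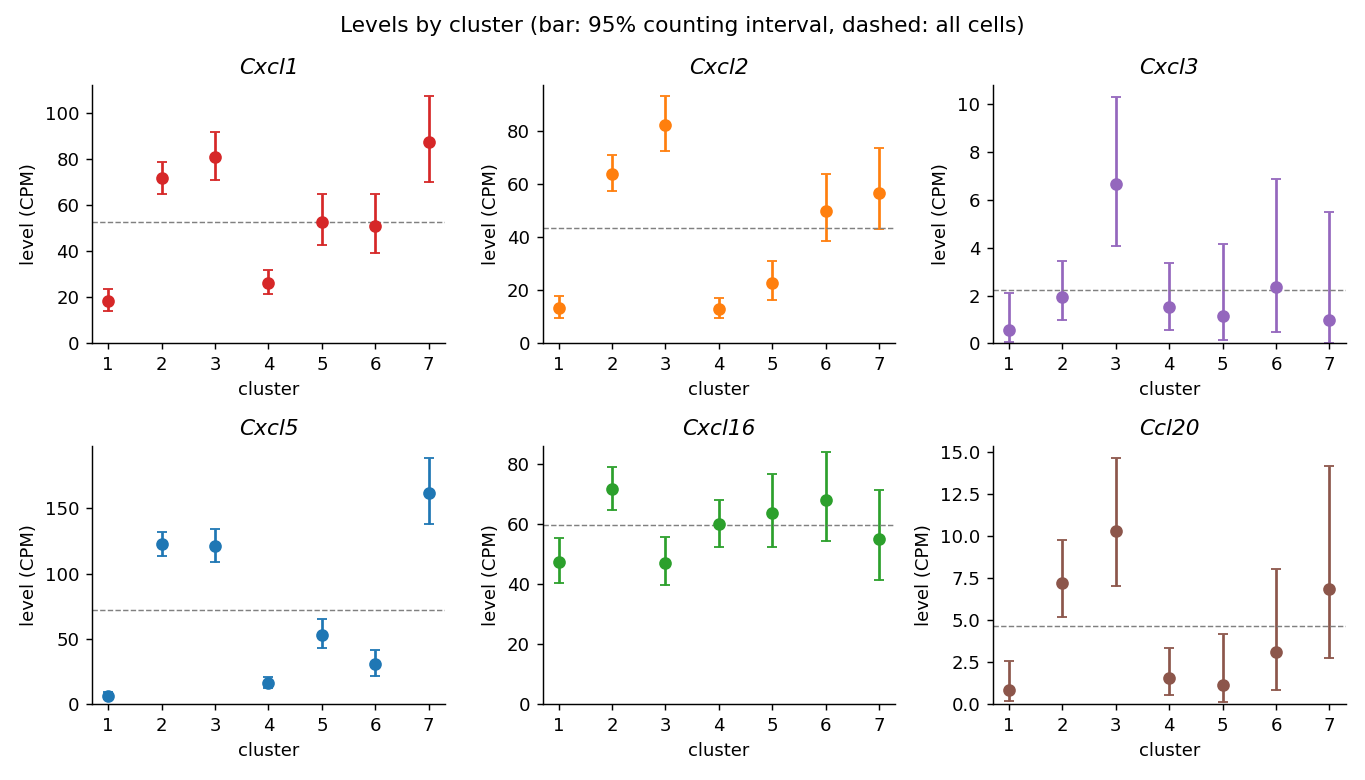
Level of each chemokine in CPM in clusters 1 to 7, with 95% counting intervals, and the level over all cells as a dashed line. The clusters were made without genes named Ccl, Cxcl, Cx3cl or Xcl. Cxcl1, Cxcl2 and Cxcl5 are lowest in clusters 1 and 4, and Cxcl16 stays between 47.2 and 71.6 CPM.

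Cells were next ordered by their Cxcl5 UMIs to see which genes were high beside it. From cells with none (1603) through 1 to 2 (198) and 3 to 9 (61) to 10 or more (30), Cxcl1 was at 30.1, 72.4, 196 and 426 CPM. Cxcl2 was at 12.5, 46.0, 184 and 772 CPM, and Ccl20 at 1.18, 2.26, 12.2 and 117 CPM. Cxcl16 was at 55.9, 65.6, 86.6 and 107 CPM over the same 4 groups, the smallest range of the 4. Epcam, at 688, 635, 778 and 615 CPM, had no order along Cxcl5. Median depth was 8113, 10422, 13557 and 14546.5 UMIs, and its part was not tested.

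The comparison below sets the 91 cells with at least 3 Cxcl5 UMIs against the 1603 with none, and it was chosen after earlier results were seen. Of 6487 other genes with a UMI in at least 10% of cells, 65 were at least 2-fold higher in CPM, or 1.002%, and 37 were at least 2-fold lower, or 0.570%. The median ratio over these genes was 1.09. With the 10% minimum set on the cells with no Cxcl5 UMI, 51 of 6262 genes were at least 2-fold higher. Cxcl1, Cxcl5 and Cxcl16 passed the same detection filter, and Cxcl2, Cxcl3 and Ccl20 did not.

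Of the 22 genes listed for the NF-kB pathway and its feedback, 13 passed the filter, and 3 of the 13 were at least 2-fold higher and none at least 2-fold lower. The median ratio of the 13 was 1.498. Nfkbia, which encodes the inhibitor IκBα, was at 466 CPM in the high cells and 174 CPM in the cells with none, a ratio of 2.69 (2.46 to 2.93). Tnfaip2, a gene induced by tumour necrosis factor, was at 531 against 149 CPM, a ratio of 3.57 (3.28 to 3.88). Nfkbiz, which encodes the nuclear inhibitor-like protein IκBζ, had a ratio of 2.01 (1.79 to 2.25), which was 1.73 (1.46 to 2.04) in the cells with tag CMO301.

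Subunits of NF-kB itself had smaller ratios, 1.59 for Nfkb2 (1.0002 to 2.42), 1.51 for Rel (1.17 to 1.91), 1.30 for Nfkb1 (0.807 to 2.01) and 1.24 for Rela (0.841 to 1.76). Below the detection filter, Tnfaip3, which encodes the deubiquitinase A20, was at 17.9 against 6.16 CPM (ratio 2.90, 1.79 to 4.54). It was at 21.1 CPM (12.7 to 32.9) at 3 to 9 Cxcl5 UMIs and 12.1 CPM (4.43 to 26.3) at 10 or more. The adhesion gene Icam1 had 14 UMIs in the high cells, a ratio of 7.66 (3.60 to 15.8). The other listed genes below the filter were Birc3 at 1.91, Bcl3 at 1.68, Birc2 at 1.49, Traf2 at 1.44, Relb at 1.26, Ikbkg at 1.01 and Nfkbie at 0. Their intervals all include 1. Grouped by Cxcl1 instead of Cxcl5, at least 3 UMIs against none, Nfkbia had a ratio of 3.67 (3.40 to 3.95) and Tnfaip3 one of 4.86 (3.13 to 7.43). In that grouping 0.293% of the 6487 genes were at least 2-fold higher and 0.262% at least 2-fold lower.

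Among 15 listed epithelial cytokines, 12 had a UMI and 3 passed the filter. Tnf, the gene of tumour necrosis factor, was at 104 against 30.7 CPM, a ratio of 3.38 (2.79 to 4.07), and it had a UMI in 62.6% of the high cells and 20.3% of the cells with none. Il18 and Il1rn had ratios of 1.07 (0.739 to 1.51) and 1.19 (0.780 to 1.74). Il1b and Il6 had no UMI in 1892 cells.

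Of 15 mucosal defence genes 11 had a UMI, and both that passed the filter were at least 2-fold higher. Lcn2, which encodes a protein that withholds bacterial siderophores, was at 945 against 94.8 CPM, a ratio of 9.97 (9.26 to 10.7), with a UMI in 74.7% and 32.4% of cells. A single cell held 208 of the 1322 Lcn2 UMIs of the high cells. Ltf, the gene of the iron-binding protein lactoferrin, had a ratio of 2.25 (2.09 to 2.42), but it was under 2-fold in the cells with tag CMO301, at 1.71 (1.53 to 1.92). Below the filter, Pigr, which carries immunoglobulin A across epithelium, had a ratio of 8.26 (6.59 to 10.3), and of 6.14 (4.15 to 8.94) without cluster 7. By tag it was 11.6 (8.78 to 15.3) for CMO301 and 4.25 (2.73 to 6.47) for CMO302.

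These ratios were recomputed within clusters 2 and 3, which held 43 and 15 of the 91 high cells. Lcn2 gave 5.85 (5.11 to 6.70) in cluster 2 and 12.5 (10.8 to 14.4) in cluster 3. Nfkbia gave 2.53 (2.22 to 2.88) and 3.20 (2.53 to 4.01), Tnf 3.17 (2.46 to 4.07) and 2.59 (1.36 to 4.56), and Tnfaip2 2.86 (2.50 to 3.26) and 9.001 (7.31 to 11.1). Among cells above the median depth Lcn2 gave 7.83 (7.14 to 8.58), Nfkbia 2.41 (2.19 to 2.66) and Tnf 3.09 (2.49 to 3.82). The ratios of Lcn2, Nfkbia and Tnf were thus above 2 in each of these subsets, as was that of Tnfaip2 in both clusters. Ltf was not, with 1.92 (1.73 to 2.12) in cluster 2 and 1.22 (0.988 to 1.49) in cluster 3. Nfkbiz gave 1.83 (1.18 to 2.72) in cluster 3 and 1.90 (1.68 to 2.15) above the median depth. Pigr had 4 UMIs in the high cells of cluster 3, a ratio of 2.15 (0.552 to 6.06). Lcn2 differed between the cells of the pair of multiplexing tags, with 6.75 (6.03 to 7.55) for CMO301 and 14.0 (12.6 to 15.5) for CMO302. A single cell held 208 of the 491 Lcn2 UMIs of the CMO301 high cells. It was 208 of 893 in the high cells above the median depth.

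**Figure D5:**
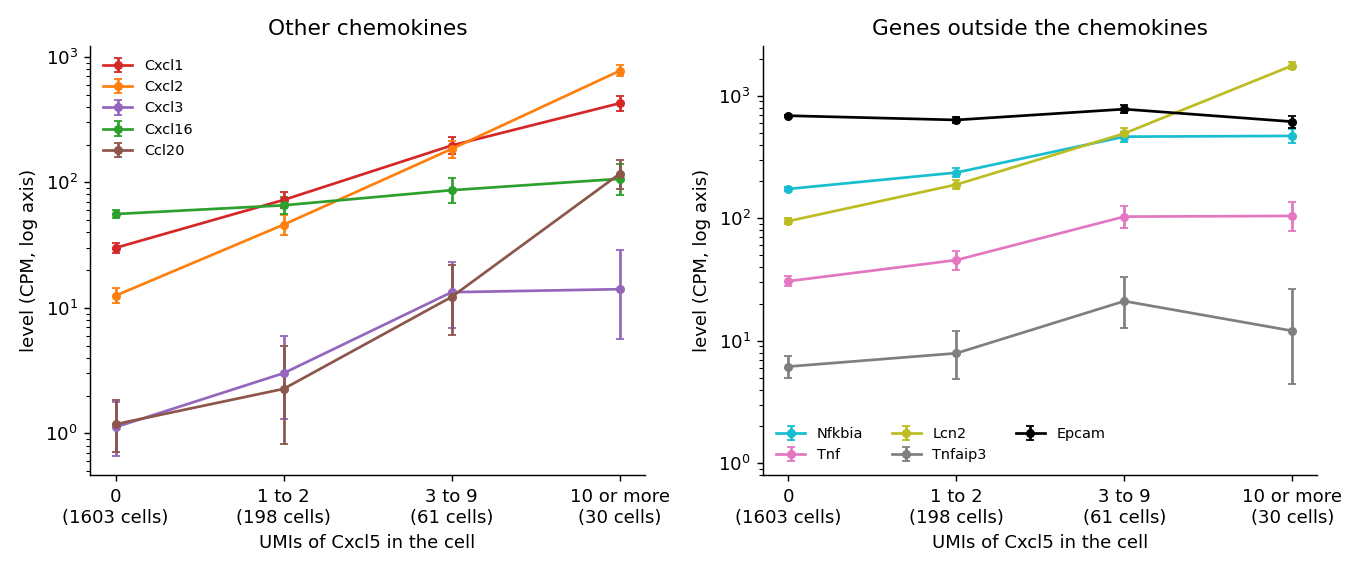
Level in CPM (log axis, 95% counting intervals) of 5 chemokines, left, and of Nfkbia, Tnf, Lcn2, Tnfaip3 and Epcam, right, in cells grouped by their Cxcl5 UMIs. Cxcl2 is at 12.5 CPM in cells with none and 772 CPM in cells with 10 or more, Lcn2 at 94.8 and 1765 CPM, and Epcam at 688 and 615 CPM.

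Early stress genes were examined because they are often raised by dissociation. Of 13 listed, 12 passed the filter, none was 2-fold higher or lower between the same cells, and their median ratio was 0.928. Fos was at 2103 against 2363 CPM, a ratio of 0.890 (0.857 to 0.924), and Atf3 had a ratio of 0.906 (0.857 to 0.956). Hspa1b, a heat shock gene, was above 1 at 1.38 (1.08 to 1.75), as was Fosl2, so 2 of the 12 were above 1, against 4225 of all 6487 genes. Grouped by Cxcl1, 9 of the 12 and 4082 of the 6487 were above 1, with a median of 1.09, Fos at 1.05 (1.02 to 1.08) and Fosl2 highest at 1.45 (1.19 to 1.76). Without cluster 7 the Fos ratio was 1.04.

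Genes that act on chemokine messages, 9 of 10 of which passed the filter, had a median ratio of 1.15. Only Zc3h12a, whose ribonuclease product degrades inflammatory messages, was at least 2-fold higher, at 27.9 against 9.09 CPM (ratio 3.07, 2.10 to 4.39). It passed the filter only through Cxcl5-positive cells, since it had a UMI in 29.7% of the high cells and 8.48% of the cells with none, and none of the list's genes was 2-fold higher when the filter was set on the cells with none. Zfp36, which encodes a protein that marks AU-rich messages for decay, had a ratio of 1.11 (0.960 to 1.28). The proteases that release Cxcl16 were at 33.4 CPM for Adam10 (30.9 to 36.0) and 22.9 CPM for Adam17 (20.8 to 25.1) over all cells.

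Receptors of the 6 ligands had few or no UMIs, which limits the share of cells with a captured UMI and not the share that transcribe them. Cxcr1, Cxcr2, Ccr6 and the scavenging receptors Ackr1 and Ackr2 had 0 UMIs in 1892 cells, and Cxcr6 had 1 UMI. Of 18 upstream cytokine and microbial receptors, all had a UMI, 5 passed the filter and none of the 5 was 2-fold higher or lower in the Cxcl5-high cells. Tnfrsf1a, a receptor of tumour necrosis factor, was at 25.6 CPM over all cells (23.4 to 27.9) with a ratio of 1.03 (0.708 to 1.44). Tlr4, a receptor of bacterial lipopolysaccharide, was at 10.6 CPM (9.26 to 12.2) with a ratio of 1.15 (0.654 to 1.89).

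Genes of other programmes also differed between the Cxcl5-high cells and the cells with none. Of 4 pit cell genes 3 passed the filter and all 3 were at least 2-fold lower in CPM. Their shares of cells with a UMI differed less between the high cells and the cells with none. These shares were 51.6% against 54.5% for Tff1, 24.2% against 22.6% for Gkn1 and 19.8% against 16.4% for Gkn2. Cluster 7 held 4179 of the 6172 Tff1 UMIs. Tff1, a mucosal repair peptide of pit cells, had a ratio of 0.165 (0.131 to 0.205), which was 0.551 (0.425 to 0.703) without cluster 7 and 1.20 (1.05 to 1.38) when cells were grouped by Cxcl1. In that grouping Gkn1 was at 0.372 (0.257 to 0.521) and Gkn2 at 0.477 (0.288 to 0.748). Without cluster 7, Gkn1 was at 0.425 (0.268 to 0.643) and Gkn2 at 0.619 (0.343 to 1.04). Within clusters 2 and 3 Gkn1 was at 0.672 (0.324 to 1.26) and 0.579 (0.117 to 1.75) and Tff1 at 0.773 (0.535 to 1.09) and 0.847 (0.457 to 1.45), and these intervals include 1. Of 7 proliferation genes 5 passed and 2 were at least 2-fold higher. Mki67 had a ratio of 2.07 (1.58 to 2.69), and 1.07 (0.680 to 1.60) without cluster 7. Birc5 had one of 3.31 (2.60 to 4.17), and 1.77 (1.20 to 2.53) without cluster 7. Of the 4 Y-linked genes none passed the filter, and Ddx3y had a ratio of 7.43 (3.15 to 16.8). Leaving out cluster 7 gave 2.95 (2.68 to 3.23) for Nfkbia, 9.81 (9.05 to 10.6) for Lcn2 and 3.96 (3.23 to 4.81) for Tnf.

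Likeness to the 6 genes together was measured as Pearson's r across 1892 cells between each gene and the summed chemokine UMIs, both scaled to 10000 UMIs and log-transformed. An r of at least 0.2 was reached by 8 of 6487 genes, or 0.123%, and by 0.154% when Cxcl16 was left out of the sum. The 8 were Nfkbia (0.38), Lcn2 (0.36), Tnf (0.32), Tnfaip2 (0.29), Ier3 (0.25), 1110008P14Rik (0.24), Cd14 (0.21) and Nfkbiz (0.20). Edn1, the gene of endothelin-1, and Gm20186 followed at 0.20 and 0.18. By Spearman's rank correlation only 4 genes reached 0.2, which were Tnf, Nfkbia, Ier3 and Lcn2. After thinning 3 of 2845 genes did, which were Lcn2, Nfkbia and Tnfaip2, and Tnf and Cd14 had no value there. Cd14 encodes a co-receptor of lipopolysaccharide and Ier3 an early-response protein. All points share 1 library and each cell's depth.

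By member, the 3 leading genes were Nfkbia (0.40), Tnf (0.32) and Lcn2 (0.31) for Cxcl1, and Nfkbia (0.35), Lcn2 (0.32) and Tnf (0.28) for Cxcl2. For Cxcl5 they were Lcn2 (0.39), Tnfaip2 (0.33) and Nfkbia (0.28), and for Ccl20 Lcn2 (0.24), Tnfaip2 (0.22) and Nfkbia (0.20). Cxcl3 gave no value above 0.13, with Med8 first, and Cxcl16 none above 0.13, with S100a11, S100a6 and Ier3 first. Correlations of that size in sparse counts are no finding.

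Of the 12 multiplexing tags counted, CMO301 or CMO302 was the highest in every kept cell, and the labels do not say which suspension had which. Cxcl1 was at 44.4 CPM (40.6 to 48.5) in the 1062 cells with CMO301 and 63.5 CPM (58.3 to 68.9) in the 830 with CMO302. Cxcl5 was at 60.4 CPM (56.0 to 65.2) and 86.0 CPM (80.0 to 92.3). The 5 highest Cxcl5 cells, with 88, 67, 66, 64 and 60 UMIs, all had CMO302, where 6 cells held 50% of its UMIs. A Cxcl5 UMI was in 15.5% of CMO301 cells (13.4% to 17.9%) and 14.9% of CMO302 cells (12.6% to 17.5%). Each tag had 15 cells with 10 or more Cxcl5 UMIs. For Cxcl2, Cxcl3, Cxcl16 and Ccl20 the CPM intervals of the 2 tags overlapped.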

How the data were processed

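One droplet library of wild type organoids was analysed, and the 6 members and the gene lists were chosen with earlier results of these data known. The deposited values are UMI counts, 1 whole number per gene and barcode, not normalized by the authors. Cell Ranger 6.1.2 wrote them, per the file headers, and the submitters' processing notes name the genome build GRCm38, also called mm10. The annotation used for counting is not given in the sources used here. Coordinates and transcripts came from GENCODE M21 (GRCm38) and promoters from RefSeq.

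Of 1991 barcodes 99 were removed by the cell filter, and 12 multiplexing tags, with 21.4% of UMIs, were kept out of all totals. Scrublet in scanpy 1.11.5, at an expected rate of 1.59%, marked 12 cells (0.634%) as doublets, which were kept in the main values and left out as an alternative. CPM were computed from summed counts with exact Poisson intervals, shares with exact Clopper-Pearson intervals and ratios with exact conditional binomial intervals (scipy 1.17.1). PCR and capture errors are not covered by them. The limit given for a count of 0 is a fixed floor of 3 counts, not an exact interval. Clusters came from Leiden clustering (leidenalg 0.10.2) at resolution 0.6, on 30 components, 15 neighbours and 2000 variable genes. Left out were genes named Ccl, Cxcl, Cx3cl or Xcl and cell cycle, sex-linked and mitochondrial genes. A cluster's genes were ranked by fold where they had 50 or more UMIs in it and were detected in 10% or more of its cells. No test was made, since cells of 1 library are not replicates. The r ranking and the variance beyond counting were tested on simulated data. Thinning was checked on cells of this library and the concentration measures on short made-up series of counts. The ratio, interval and co-detection steps were not tested in this way.

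Genes were named by a written rule. It took the members, other Ccl, Cxcl, Cx3cl and Xcl genes with at least 20 UMIs, the 10 genes with the highest r with the chemokine sum, 3 for each member, 3 leading genes per cluster and the listed genes. Ppbp and Pf4 were named for their position, and the run shared by the promoters was sought after their sequences were seen. Of the pit cell genes, Tff1 was at 307 CPM in 54.7% of cells, Gkn1 at 70.8 CPM, Gkn2 at 41.0 CPM and Muc5ac at 5.67 CPM. Muc6 had 1 UMI and Tff2 17.6 CPM (mucous neck), Pgc had 3.53 CPM with Cblif and Pga5 at 0 (chief), Atp4a had 1.44 CPM and Atp4b 0 (parietal), Chga and Sst had 0, Chgb 2 and Gast 1 UMI (endocrine), and Dclk1 had 1.59 CPM, Pou2f3 3 UMIs and Trpm5 0 (tuft). The 6 listed epithelial genes had a median ratio of 0.982 between Cxcl5-high cells and cells with none, as had the 8 genes used to compare concentration. Alternatives were other cell filters, doublets, tags, thinning, clustering settings, Spearman's rank correlation and the omission of cluster 7 or of the highest cell. Those for the highest cell, for Cxcl16 left out of the sum, for chemokine genes kept in the clustering, for the highest cell of each cluster and for the Cxcl5-high cells and their detection filter were chosen after seeing the data.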

Additional observations from a re-analysis of the deposited data

Results flagged for a closer look

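Chemokine UMIs were also present in the 99 barcodes that the cell filter removed, which no comparison above uses. Cxcl5 had 5 UMIs there, 1 in each of 5 barcodes, or 42.2 CPM (13.7 to 98.4) against 71.8 CPM in kept cells. Cxcl16 likewise had 5 UMIs in 5 barcodes, or 42.2 CPM (13.7 to 98.4) against 59.8 CPM. Both counts are above 3 UMIs, the floor set here for a count of 0. Cxcl1 had 1 UMI and Cxcl2 had 2, while Cxcl3 and Ccl20 had none. The median depth of these barcodes was 901 UMIs, and no removed barcode had more than 1 UMI of any member.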

How the results depend on the processing

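No paired analysis was possible because only 1 library was analysed. Thinning to 3000 UMIs lowered the share of cells with a UMI to 9.26% for Cxcl1, 4.90% for Cxcl2, 0.817% for Cxcl3, 6.98% for Cxcl5, 14.99% for Cxcl16 and 0.817% for Ccl20. It raised the share of UMIs in the top 10% of cells to 100% for Cxcl1 and Cxcl5 and 70.6% for Cxcl16. For Cxcl1 and Cxcl5 this holds by construction, since fewer than 10% of thinned cells had a UMI. Levels after thinning were 46.5 CPM for Cxcl2, 3.63 CPM for Cxcl3 and 56.1 CPM for Cxcl16. Without its highest cell Cxcl2 was at 38.2 CPM and Cxcl5 at 67.5 CPM. Cxcl5 was at 67.0 CPM without cluster 7 and 75.8 CPM as a mean over cells. By tag, CMO301 then CMO302, Cxcl1 was at 44.4 and 63.5 CPM, Cxcl5 at 60.4 and 86.0 CPM, and the top 10% of cells held 91.3% and 94.7% of Cxcl5. A Cxcl5 UMI was in 15.5% and 14.9% of the cells of these tags, and the 5 highest Cxcl5 cells all had CMO302. In CMO302 cells Cxcl2 had a UMI in 9.88%. The cause of these shifts was not tested.

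The median over 15 pairs of the observed number of cells with both genes over the product of their shares was 3.37, and it was 2.10 with at most 10% mitochondrial UMIs, 6.56 in CMO301 cells and 5.32 at 2000 UMIs. Cxcl3 and Ccl20 were each in 15 cells at 3000 UMIs, and the cause was not tested. The ratio of highest to lowest cluster was 4.71 for Cxcl1, 6.31 for Cxcl2, 25.4 for Cxcl5 and 1.52 for Cxcl16. At resolution 0.3, which gave 3 clusters, it was 2.96 for Cxcl1, 4.17 for Cxcl2, 9.55 for Cxcl5 and 1.18 for Cxcl16. Resolution 1.0 gave 7.20 for Cxcl1 and 15.3 for Cxcl2. For Cxcl2 it was 9.96 with 15 components, 10.1 with 50 and 14.9 with chemokine genes kept. In CMO302 cells it was 8.53 for Cxcl1 and 20.8 for Cxcl2. With each cluster's highest cell left out, the ratio of highest to lowest cluster was 4.30 for Cxcl1, 6.21 for Cxcl2, 22.7 for Cxcl5 and 1.54 for Cxcl16. The count of genes with r of at least 0.2 was 4 by Spearman, 3 of 2845 genes after thinning and 13 in CMO302 cells, and Nfkbia and Lcn2 were among the first 4 in each.

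Among the 26 genes whose ratio between Cxcl5-high cells and cells with none was recomputed, 5 changed side of 1. They were Fos (1.04 without cluster 7, 1.02 in cluster 2, 1.10 in cluster 3), Il33 (0.487 without cluster 7, 0.439 in cluster 2), Gkn2 (1.07 in cluster 2), Cxcl15 (0.320 in CMO302 cells) and Epcam (0.972 in CMO301 cells), whose main interval included 1. In subsets where a gene had 0 UMIs on either side, such as Tnfaip3 and Birc5 in cluster 3, no ratio was formed. The depth limits Cxcl3 and Ccl20 most, with 45 and 94 UMIs.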

Other observations

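Of the other genes whose symbols begin with Ccl, Cxcl, Cx3cl or Xcl, 32 symbols in all, 8 gene entries had at least 20 UMIs. Their r with the chemokine sum ran from -0.02 for Ccl27a to 0.08 for Cxcl10. Cx3cl1, a membrane-bound chemokine, was at 32.6 CPM (30.1 to 35.1) in 24.7% of cells, and its CPM ratio between the 91 Cxcl5-high cells and cells with none was 0.972 (0.698 to 1.32). Cxcl17, made by mucosal epithelia, was at 21.9 CPM (19.9 to 24.1) in 16.5% of cells. Ccl25 was at 7.85 CPM, Ccl27a at 5.67 CPM (uncertain, since several entries share that symbol), Cxcl15 at 5.42 CPM, Ccl17 at 2.73 CPM and Cxcl10 at 1.54 CPM. Inside the chromosome 5 stretch, 2 chemokine genes with other symbols also passed 20 UMIs. Pf4 was at 5.42 CPM in 90 cells and Ppbp at 1.69 CPM in 24 cells.

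Cxcl15 lies between Cxcl3 and Cxcl1 and was at 16.4 CPM in the Cxcl5-high cells against 4.42 CPM in those without, a ratio of 3.72 (2.22 to 6.03). It was 1.98 (0.817 to 4.17) without cluster 7, and 22 of its 23 UMIs in the high cells came from cells with tag CMO301.

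Ccl5 had 115 UMIs, and 106 of them lay in 1 cell. That cell had 9138 gene UMIs, 24 UMIs of Krt18, 7 of Epcam and 5 of Krt8, and no UMI of Ptprc, Cd3e or any of the 6 chemokines, and it was not called a doublet. Cxcl10, an interferon-induced chemokine, had 31 UMIs in 13 cells, and its highest cells had 8 and 8. Those cells had 0 or 1 UMI of Cxcl1 and of Cxcl5.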
